A study of Mus musculus with 2 samples.

Results

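The genes described here are 35 mouse genes of DNA damage repair, listed by name, with no measured value in the rule but with earlier results of these data known, out of 31053 genes in the count tables. They fall into 8 genes of end joining, 6 of homologous repair, 9 of break sensing and checkpoint signalling, 3 of the Fanconi pathway, 1 of mismatch repair and 8 of excision and single-strand repair. They were measured by droplet single-cell RNA sequencing (10x Genomics 3′ chemistry) in LSK cells, the bone marrow fraction that lacks lineage markers, carries Sca1 and Kit, and contains blood stem cells with their early multipotent offspring. One library came from control C57BL/6J mice aged 6-8 weeks and 1 from mice of the same strain and age 15 days after 5.0 Gy of total body irradiation. The number of animals behind each library was not given, and no genotype other than the strain was named.

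Ionising radiation breaks both DNA strands, and cells rejoin such breaks by end joining, which works in every phase of the cell cycle, or by homologous repair, which copies the sister chromatid and therefore acts in S and G2 phase. Base damage and breaks of 1 strand are handled by excision repair, crosslinks by the Fanconi pathway and copying errors by mismatch repair. Resting blood stem cells are known to lean on end joining, while cycling progenitors can use homologous repair. A transcript level says nothing of the activity of these enzymes, many of which are set by phosphorylation and recruitment to the break.

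After filtering, 7188 control cells held 138080503 UMIs (unique molecular identifiers, each standing for 1 captured transcript), and 5112 irradiated cells held 162748209. Median depth was 16083.5 UMIs per control cell and 29615 per irradiated cell, so levels are given as UMIs per 1000000 UMIs of a library or group of cells (CPM). With 1 library per group no test was possible; ratios carry exact 95% intervals that cover counting error only and not the spread between animals. A gene was called higher or lower when the larger of its CPM values was at least 25% above the smaller, at a mean of at least 5 CPM. Both gate genes were present, Ly6a (Sca1) at 156 CPM in control and 218 in irradiated cells and Kit at 132 and 73.5, whereas the lineage gene Cd3e (T cells) stood at 0.0579 and 0.0553 CPM. A doublet caller marked 2 control and 16 irradiated barcodes, too few to take as working, so doublets remained in the data, and 16 barcodes occurred in both libraries. The libraries differed in cell mix. HSC-like cells (haematopoietic stem cells, named by markers that included Hlf, Procr, Mecom and Mllt3) were 20.6% of control and 4.71% of irradiated cells, and neutrophil-primed cells 1.47% and 20.4%. Cells called G1 were 48.2% of control and 21.3% of irradiated cells, and the part of mix and phase in the ratios over all cells is addressed by the values within classes and phases. Fewer cells of a type and less RNA per cell cannot be told apart in a sum over all cells.

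Over all cells, no repair gene was called higher in the irradiated library and 8 were called lower. The 8 were 4 end joining genes (Xrcc4, Xrcc5, Trp53bp1 and Prkdc), Brca2, the kinase gene Atm, the mediator gene Mdc1 and the damage sensor gene Xpc. None of the 33 genes that reached the minimum level changed 2-fold, and their median log2 ratio of irradiated over control CPM was -0.07. Among all 9032 genes at that level, 17.2% were called higher and 28.3% lower, with a median of -0.06, so the share of repair genes called lower was near the background and the share called higher was under it. With a scaling by the median of gene ratios in place of library totals, 3 repair genes were higher and 6 lower. The count of 0 moved with the weighting of cells. With each cell weighted equally 9 were higher and 6 lower, and with cells thinned to 5000 UMIs 8 were higher and 5 lower.

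**Figure D1:**
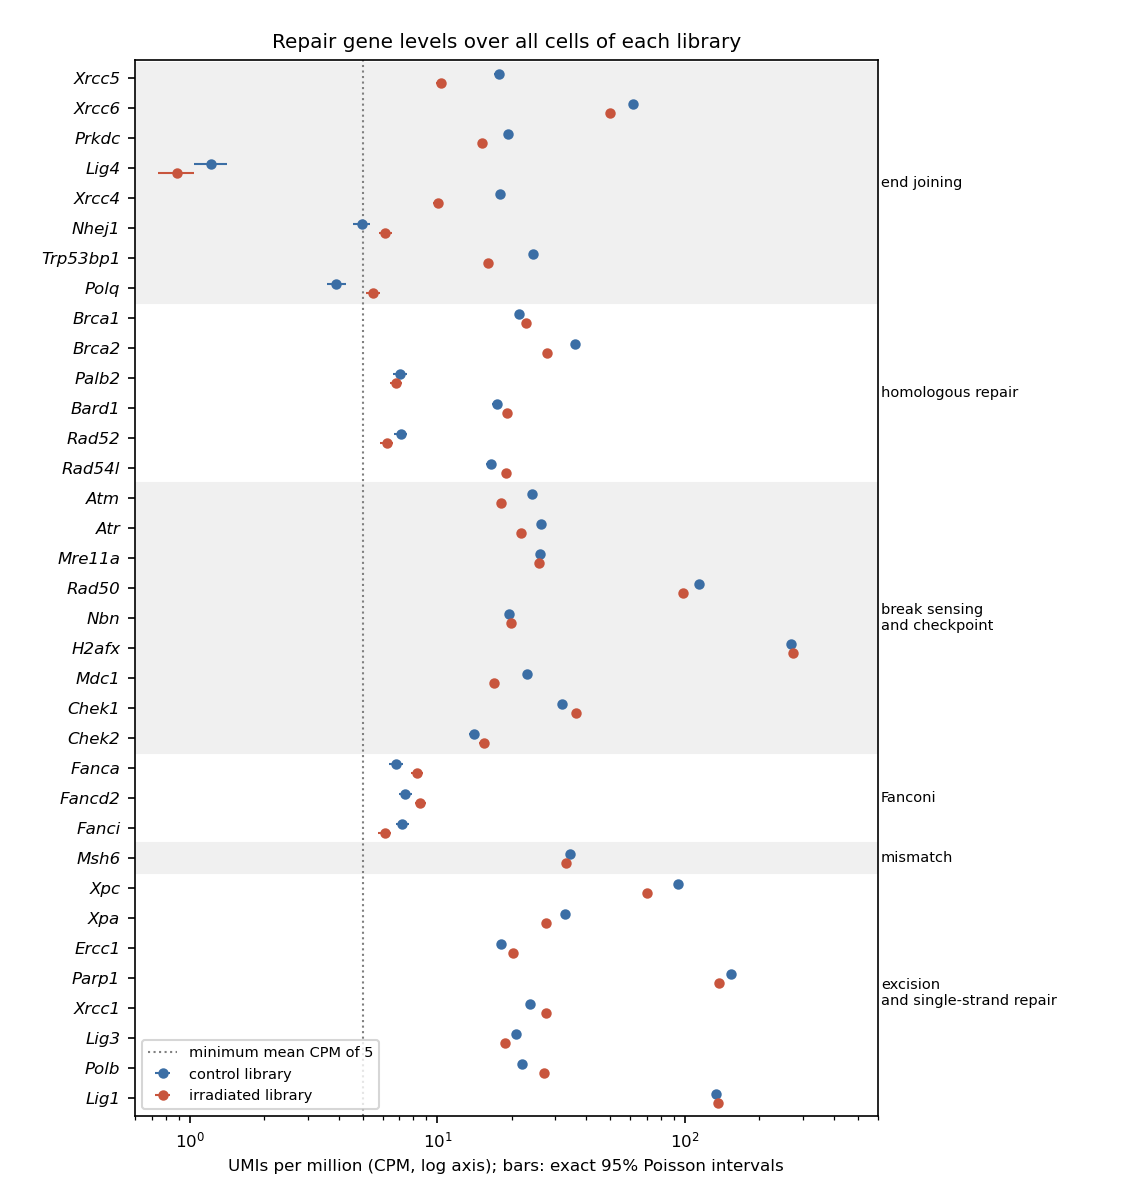
Level of each of the 35 repair genes in CPM (log axis) over all cells of the control library (blue) and the irradiated library (red), with exact 95% Poisson intervals and the genes grouped by role. Most pairs of points lie close together, the red points of Xrcc5, Xrcc4 and Trp53bp1 lie to the left of the blue ones, and Lig4 lies below the dotted minimum of 5 CPM.

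End joining begins with Ku, a ring of the products of Xrcc5 and Xrcc6 that slides onto a broken end. Xrcc5 (ENSMUSG00000026187, chr1:72307421-72394952, plus strand, GRCm38) had 17.7 CPM in control cells against 10.4 after irradiation (log2 ratio -0.77, interval -0.86 to -0.68). Xrcc6 (ENSMUSG00000022471, chr15:81987835-82040085, plus strand) had 61.6 and 49.9 CPM, a log2 ratio of -0.30 that stayed short of the call. Prkdc, the kinase that Ku recruits, was at 19.3 and 15.1 CPM (-0.35). Xrcc4, the scaffold of the joining ligase, had the lowest ratio of all members at -0.83 (-0.92 to -0.74), from 18.0 to 10.1 CPM. Lig4, that ligase itself, was barely captured, at 1.22 and 0.885 CPM. On the other strand, genes overlap the 3′ ends of Xrcc4 (Gm4117), Trp53bp1, Atr, Rad54l, Fanca, Fancd2, Fanci, Msh6, Xpa, Ercc1 and Lig3. Nhej1, which aligns the ends, had 4.94 and 6.16 CPM, and its log2 ratio of 0.32 was just short of the call. Trp53bp1, whose product shields ends from resection, was at 24.4 and 16.0 CPM (-0.60). Polq, the polymerase of microhomology-mediated joining, was at 3.91 and 5.51 CPM and missed the minimum mean. Counted per cell rather than as CPM, Xrcc5 gave 34.0 UMIs per 100 control cells and 33.0 per 100 irradiated cells, and Xrcc4 34.5 and 32.1, since irradiated cells held more UMIs in all.

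Taken over all cells and phases together, homologous repair genes stood near their control levels apart from Brca2, which loads the recombinase onto single-stranded DNA. Values within phases are given below. Brca2 had 35.9 and 27.8 CPM (log2 ratio -0.37, interval -0.43 to -0.31). Brca1 was at 21.4 and 22.9 CPM, its partner Bard1 at 17.4 and 19.1, and Palb2, which bridges Brca1 and Brca2, at 7.08 and 6.80. Rad52, an annealing factor, was at 7.11 and 6.23 CPM, and Rad54l, a motor protein that helps strand invasion, at 16.4 and 18.9 CPM. The log2 ratios of these other 5 genes lay between -0.19 and 0.20.

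Among the sensors and checkpoint kinases, Atm, the kinase that answers breaks of both strands, was at 24.2 and 18.1 CPM (-0.42). Mdc1, which binds phosphorylated H2afx and holds repair factors at the break, was at 23.0 and 16.9 CPM (-0.44). Atr, the kinase of stalled replication forks, was at 26.2 and 21.9 CPM (-0.26). The Mre11a, Rad50 and Nbn products form the complex that trims broken ends, and these genes stood at 26.0 and 25.7, at 114 and 98, and at 19.4 and 19.8 CPM. H2afx, the histone variant phosphorylated around breaks, was at 267 and 274 CPM. The checkpoint kinase genes Chek1 (31.8 and 36.4 CPM) and Chek2 (14 and 15.4 CPM) had log2 ratios of 0.19 and 0.13.

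In the Fanconi group, Fanca of the core complex was at 6.79 and 8.29 CPM, and its clamp targets Fancd2 at 7.43 and 8.53 and Fanci at 7.21 and 6.13. Msh6, which recognises mismatches, was at 34.5 and 32.9 CPM. In excision repair, Xpc, the lesion sensor, was at 93.5 and 70.2 CPM (-0.41), while Xpa, which verifies the lesion, was at 32.9 and 27.6 CPM (-0.25) and the nuclease subunit gene Ercc1 at 18.1 and 20.2 CPM (0.16). Parp1, the break-sensing polymerase of poly(ADP-ribose), was at 154 and 137 CPM. Xrcc1, the scaffold of single-strand break repair, was at 23.8 and 27.3 CPM, its ligase gene Lig3 at 20.8 and 18.8, and Lig1, the replicative ligase, at 133 and 136. Polb, the gap-filling polymerase of base excision repair, had 21.9 and 27.0 CPM, its log2 ratio of 0.30 (0.24 to 0.37) was just short of the call, and it gave 42.1 UMIs per 100 control cells and 86.1 per 100 irradiated cells.

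Of 88 other gene names listed for the same pathways, 87 were in the files. The name not found, Rev7, is an alias of Mad2l2, which was found. Of the 87 genes, 76 reached the minimum level, with a median log2 ratio of -0.01. Of these, 10 were called higher and 13 lower, beside 17.2% and 28.3% of all genes. One of them passed 1.5-fold. This was Mlh3, a mismatch repair and meiotic crossover factor, with 9.10 CPM in control cells and 5.57 after irradiation (-0.71).

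Repair genes differed widely between cell cycle phases. In control cells, 19 of 31 measured members were called higher in S than in G1 cells and 3 lower, with a median log2 ratio of 0.65, where 18.7% of all genes were higher and 27.4% lower. In irradiated cells 14 of 31 were higher and 5 lower, with a median of 0.25, against 20.2% and 27.5% of all genes. For G2/M over G1 the counts were 16 higher and 4 lower of 32 in control (median 0.37, all genes 20.7% and 26.6%) and 17 higher and 5 lower of 32 in irradiated cells (median 0.36, all genes 22% and 25%). Phases were called with gene lists that hold no member, but those lists, the members and depth all move with the cycle: median UMIs per control cell were 12045.5 in G1, 20179 in S and 27068 in G2/M calls.

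**Figure D2:**
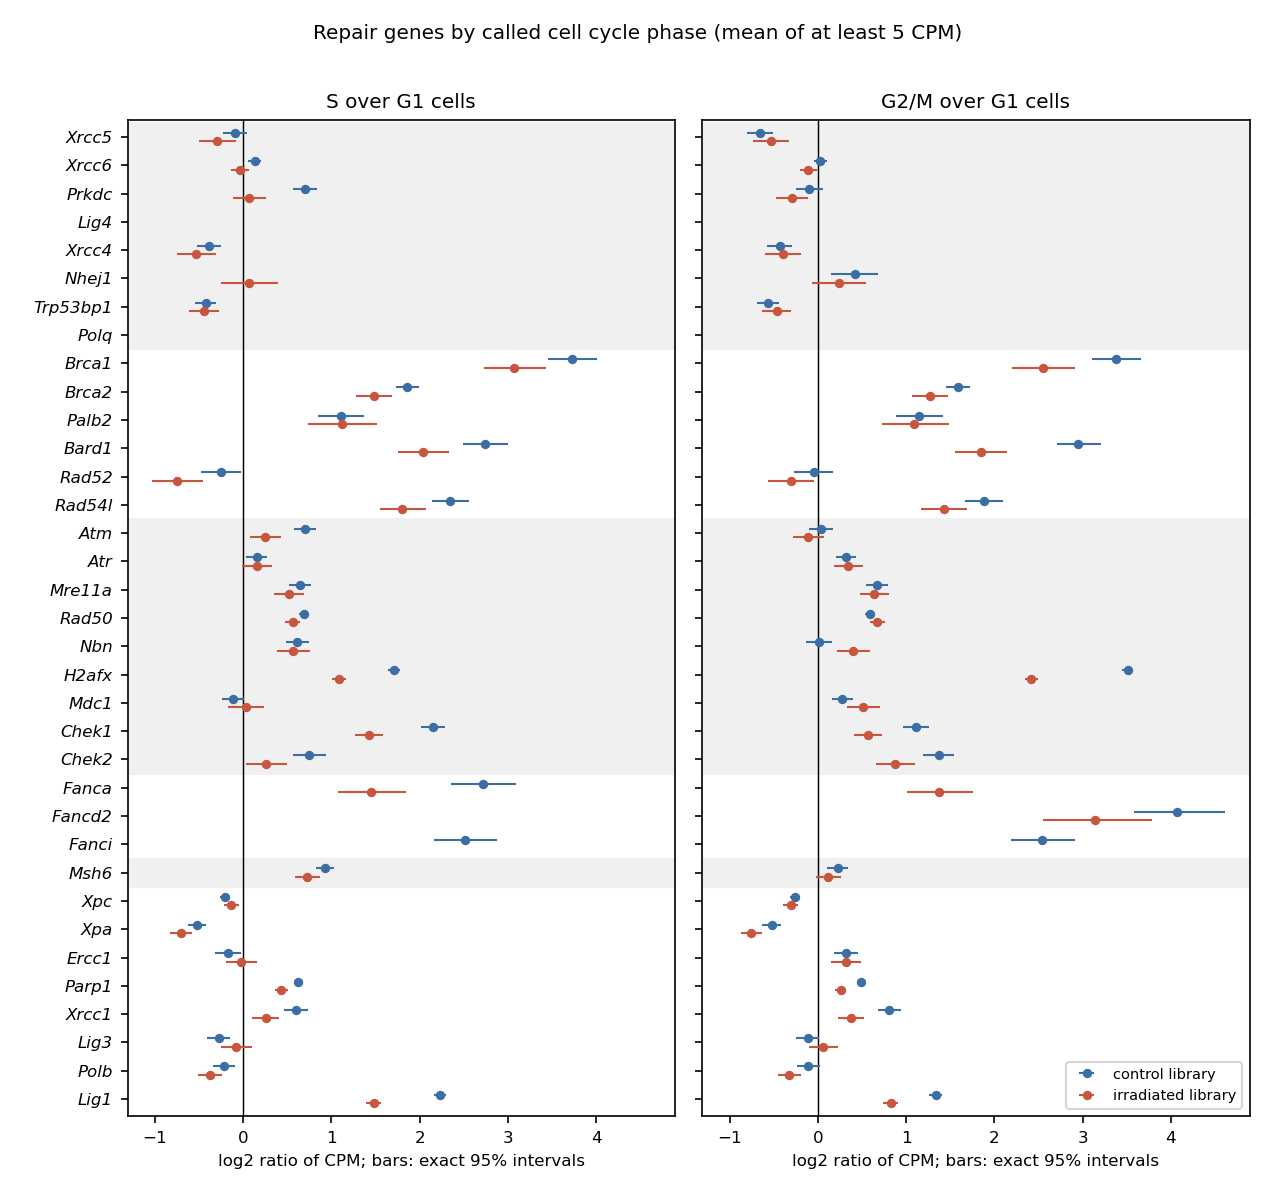
Log2 ratio of CPM in S over G1 cells (left) and G2/M over G1 cells (right) for each repair gene at a mean of at least 5 CPM, in the control (blue) and irradiated (red) library, with exact 95% intervals. Homologous repair genes other than Rad52, the Fanconi genes, H2afx, Chek1 and Lig1 lie far to the right of 0, and Xrcc4, Trp53bp1, Xpc and Xpa lie to the left in both libraries.

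Homologous repair genes other than Rad52 were higher in S than in G1 cells of both libraries. Brca1 stood at 2.58 CPM in G1, 34.2 in S and 26.8 in G2/M control cells and at 3.69, 31.0 and 21.5 CPM in irradiated cells. Its log2 ratio of S over G1 was 3.73 in control and 3.07 in irradiated cells. Bard1 had S over G1 ratios of 2.74 and 2.03, Rad54l of 2.34 and 1.80, Brca2 of 1.86 and 1.48, and Palb2 of 1.11 and 1.12. Rad52 stood on the other side of 0, with log2 ratios of -0.25 in control and -0.75 in irradiated cells.

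Fanconi and replication-linked genes also peaked outside G1. Fanca was 2.72 and 1.45 higher on the log2 scale in S than in G1 cells, in control and irradiated cells in that order. Fanci was 2.51 higher in control S cells, and in irradiated cells it stayed under the minimum level. Fancd2 was highest in G2/M cells, with log2 ratios over G1 of 4.07 in control (0.78 and 13.1 CPM in G1 and G2/M) and 3.14 in irradiated cells. Lig1, which seals the fragments of the lagging strand, stood at 48 CPM in control G1 and 225 in S cells, and at 66.1 and 184 CPM in irradiated cells. Chek1 showed 12.4, 54.8 and 26.8 CPM in control G1, S and G2/M cells and 19.5, 52.3 and 28.9 CPM in irradiated cells. Msh6 was higher in S than in G1 cells by 0.92 in control and 0.73 in irradiated cells on the log2 scale, and Parp1 by 0.62 and 0.43. H2afx peaked in G2/M cells, at 51.5, 168 and 587 CPM in control and 75, 159 and 401 CPM in irradiated cells.

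Several end joining genes and the nucleotide excision gene Xpa were instead lower outside G1. Trp53bp1 had log2 ratios of S over G1 of -0.43 in control and -0.44 in irradiated cells, and Xrcc4 of -0.39 and -0.53. Xrcc5 was lowest in G2/M cells, with log2 ratios over G1 of -0.66 and -0.53. Xpa stood at 41.3 CPM in control G1 and 28.7 in S cells, and at 42.5 and 26.1 CPM in irradiated cells. Xpc stayed short of the call, with log2 ratios of S over G1 of -0.21 in control and -0.13 in irradiated cells. Ercc1 was above its G1 level in G2/M cells, by 0.31 and 0.32, also short of the call. Some other end joining genes were called higher outside G1 in the control library. Prkdc was called higher in S than in G1 cells of the control library (0.70), with 0.07 in irradiated cells, and Nhej1 was called higher in control G2/M cells (0.42), with 0.24 in irradiated cells. Polq had a mean below the minimum level in each comparison with G1 cells. It stood at 0.89, 4.58 and 6.21 CPM in control G1, S and G2/M cells and at 0.88, 5.60 and 6.51 CPM in irradiated cells.

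Promoter sequence was set beside the phase pattern because the genes of S phase are widely controlled by E2F factors. RefSeq promoter windows (GRCm38.p6, 250 bases before the start) were matched for 28 of the 35 genes; Prkdc, Rad50, Nbn, H2afx, Fancd2, Xpc and Polb were not among them. Of the 9 members at least 2-fold higher in S than in G1 cells of both libraries, 8 were matched, and 2 of these (Brca2 and Bard1) held an E2F site written as TTTCCCGC, TTTCGCGC, TTTGCCGC or TTTGGCGC on either strand. So did 3 of the other 20 matched members (Xrcc6, Mdc1 and Chek2) and 1.86% of all 32851 promoter windows. Each member was counted once over all its windows, whereas the share of all windows counted each window singly. The windows of Brca2 and Bard1, with the match in capitals, are shown because they are the only 2 of those 8 that hold one (Brca1, Fanca, Rad54l, Lig1, Palb2 and Chek1 do not), and that of Xrcc5, which holds none, because it is the Ku gene with the lower level. They are Brca2 chr5:150522371-150522620 (plus strand), Bard1 chr1:71103147-71103222 (minus strand, shown only outside annotated exons) and Xrcc5 chr1:72307171-72307420 (plus strand).
Brca2: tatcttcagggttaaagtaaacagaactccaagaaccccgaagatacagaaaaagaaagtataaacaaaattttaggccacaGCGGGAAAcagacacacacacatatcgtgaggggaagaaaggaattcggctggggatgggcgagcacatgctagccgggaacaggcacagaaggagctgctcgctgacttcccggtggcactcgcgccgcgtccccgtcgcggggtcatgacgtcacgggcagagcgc
Bard1: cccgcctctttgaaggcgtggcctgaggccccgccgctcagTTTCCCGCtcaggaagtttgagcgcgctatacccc
Xrcc5: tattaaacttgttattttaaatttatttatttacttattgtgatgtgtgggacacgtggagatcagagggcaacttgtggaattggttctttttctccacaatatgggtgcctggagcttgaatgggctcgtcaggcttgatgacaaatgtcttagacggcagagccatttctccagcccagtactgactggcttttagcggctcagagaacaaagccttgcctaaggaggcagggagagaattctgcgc
In Brca2 the match lay 168 bases before the start, on the strand opposite to the gene. In Bard1 it lay 209 bases before the start, on the strand of the gene. These are letter matches within a short window and not measured binding sites.

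Irradiated and control cells were then compared within each called phase. In G1 cells 7 of 27 measured members were called higher in the irradiated library and 6 lower (all genes 14.8% and 25.5%), with a median log2 ratio of -0.07. In S cells 1 of 33 was higher and 12 lower (14.7% and 26.7%, median -0.20), and in G2/M cells 0 of 34 were higher and 9 lower (14% and 25.8%, median -0.21). The genes higher in G1 cells were Chek1 (0.66), H2afx (0.54), Polb (0.50), Lig1 (0.46), Rad54l (0.44), Xrcc1 (0.42) and, named after its value was seen, Chek2 (0.35). Apart from Polb, each of them had a lower level in G1 than in S or G2/M cells of both libraries. Cells called G1 in the irradiated library also held more UMIs of the S list (1931 against 1430 CPM) and of the G2/M list (2346 against 1723 CPM), and the part of these residual cycle genes in the G1 differences was not tested. Xrcc4, Xrcc5, Trp53bp1 and Mdc1 were called lower in the irradiated library in each phase, though phases did not hold the mix of clusters fixed. Of the 10 clusters with at least 100 cells in each library, Xrcc4 was called lower in 9 and Mdc1 in 7. Xrcc5 was called lower in 5 of the 8 where it was measured, and Trp53bp1 in 2 of 10. The log2 ratios in G1, S and G2/M cells were -0.70, -0.84 and -0.67 for Xrcc4, -0.62, -0.82 and -0.50 for Xrcc5, -0.53, -0.54 and -0.42 for Trp53bp1, and -0.68, -0.53 and -0.44 for Mdc1. Those of Brca2 were -0.26, -0.64 and -0.58, the first short of the call. H2afx had -0.55 in G2/M and -0.09 in S cells. The remaining lower genes in S cells were Atm (-0.62), Prkdc (-0.61), Fanci (-0.53), Rad50 (-0.45), Rad52 (-0.37), Xrcc6 (-0.34) and Atr (-0.34). In G2/M cells they were Fanci (-0.58), Xpc (-0.41) and Bard1 (-0.39), and in G1 cells Xpc (-0.36) and Atr (-0.34). Xrcc6, Atr and the G1 value of Xpc were named after their values were seen.

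**Figure D3:**
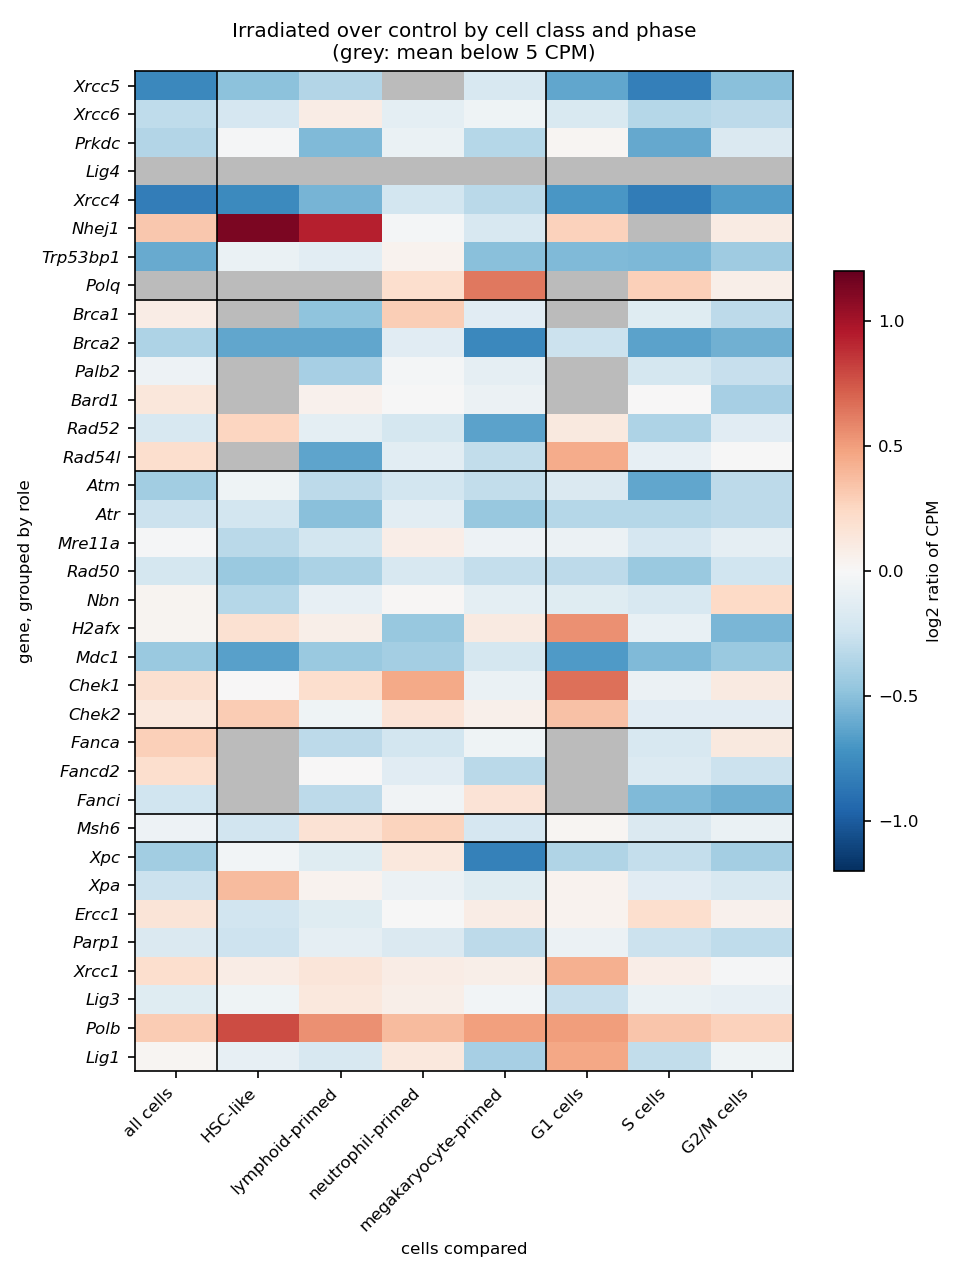
Log2 ratio of irradiated over control CPM for each repair gene (rows, by role) over all cells, in 4 cell classes and in 3 cell cycle phases (columns). Blue is lower and red higher in the irradiated library, and grey marks a mean below 5 CPM. Polb is red in every column, Xrcc4 is blue in every column, and Nhej1 is dark red in HSC-like and lymphoid-primed cells.

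Within HSC-like cells (1483 control and 241 irradiated), 3 repair genes were higher and 7 lower of 26 measured, against 11.8% and 15.9% of all genes. Of these cells, 91.7% in control and 92.8% in irradiated were called G1. Polb had 23.6 CPM in control cells and 40.5 after irradiation (log2 ratio 0.78, interval 0.48 to 1.07). Nhej1 passed 2-fold, at 4.15 and 9.06 CPM (1.13, interval 0.44 to 1.77), on 73 and 28 UMIs. Xpa was at 42.7 and 55.7 CPM (0.38). The 7 lower genes were Xrcc4 (-0.76), Mdc1 (-0.65), Brca2 (-0.62), Xrcc5 (-0.49) and all 3 genes of the end-trimming complex, Rad50 (-0.45, interval -0.66 to -0.23), Nbn (-0.34, -0.80 to 0.09) and Mre11a (-0.33, -0.78 to 0.10). The intervals of Nbn and Mre11a reach 0, and these 2 genes and Brca2 were named after their values were seen. Brca1, Bard1, Palb2, Rad54l and the 3 Fanconi genes were below 5 CPM in HSC-like cells of both libraries.

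Lymphoid-primed cells (839 and 373, named by Dntt, Satb1, Flt3, Il7r and Notch1) had 2 repair genes higher and 10 lower of 33, against 11.2% and 15.2% of all genes. Polb was again higher, at 19.8 and 29 CPM (0.55). Brca2 was at 41.1 and 26.6 CPM (-0.63), Rad54l at 19.96 and 12.9 (-0.63), Brca1 at 26.6 and 19.0 (-0.48) and Atr at 24.6 and 17.3 (-0.51). Nhej1, named after its value was seen, was the second higher gene at 3.57 and 6.79 CPM. Rad54l was also named after its value was seen. At a coarser clustering, which put 2187 control and 416 irradiated cells in this class, 8 members were higher and 4 lower, and Rad54l had a log2 ratio of 0.14.

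Neutrophil-primed cells (106 and 1045, named by Elane, Mpo, Ctsg, Prtn3, Ms4a3 and Hp) showed the fewest calls, 2 higher and 2 lower of 33, against 9.2% and 11.9% of all genes. Chek1 was at 23.5 and 32.4 CPM (0.46) and Polb at 18.9 and 24.5 CPM (0.38). H2afx was at 303 and 221 CPM (-0.46), and Mdc1, named after its value was seen, was the other lower gene at -0.40. Mature neutrophil genes were also among the leading genes of this cluster, 4 of its 10 genes of highest fold, beside 5 of its own list; their summed level over all cells was 339 CPM in the control library and 67.3 in the irradiated one, none of 6 at 0, and their part in these ratios was not tested.

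Megakaryocyte-primed cells (203 and 488, named by Pf4, Itga2b, Gp5, Cd9, Gp9 and Vwf) had 2 repair genes higher and 8 lower of 34, against 9.16% and 21.2% of all genes. Xpc was at 41.2 and 23.5 CPM (-0.81, interval -1.09 to -0.53), and Brca2 at 58.3 and 34.2 CPM (-0.77). Lig1 was at 206 and 156 CPM (-0.40), Trp53bp1 at 26.9 and 19.0 (-0.50) and Atr at 34.5 and 25.2 (-0.46). Polb was at 21.1 and 29.6 CPM (0.49), and the other higher gene was Polq, named after its value was seen, on 18 and 71 UMIs (0.63, interval -0.13 to 1.46). Xpc was also low in this cluster within the control library, where the other compared clusters held between 69.2 and 145 CPM.

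The other repair genes, like all genes, were called lower more often than higher in each of these 4 classes. They had 4 higher and 13 lower of 66 in HSC-like, 2 and 16 of 75 in lymphoid-primed, 7 and 13 of 72 in neutrophil-primed and 1 and 20 of 77 in megakaryocyte-primed cells, beside the shares of all genes given above for each class. With each cell thinned to 5000 UMIs, the 35 members together gave a mean of 4.001 UMIs per control and 3.64 per irradiated HSC-like cell, and 7.77 and 6.69 per megakaryocyte-primed cell. Over all cells the means were 6.10 and 6.14.

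Directions across all 10 clusters with at least 100 cells in each library were read for the 24 members at 5 CPM or more in each of them. Xrcc4, Brca2, Atr, Rad50 and Mdc1 were below control in all 10, which is 5 of 24, while 11.8% of 7564 genes were. Xrcc1 was above control in 10 and Polb in 9 of 10, while 21% of genes were above in at least 9. In the exception, a cluster led by Wfdc17, Ccl4 and Dntt, Polb had a log2 ratio of -0.15.

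Xrcc5 was nearly missing from some clusters of both libraries, a pattern picked out after its values were seen. In the neutrophil-primed cluster it had 1.40 CPM in the control library and 2.49 in the irradiated one, on 6 and 118 UMIs, although these cells were the deepest, with medians of 43386.5 and 45064 UMIs. In cluster 10, led by Ung, Ccl9, Ms4a6c and Cebpa, it was at 5.43 and 3.45 CPM. In the other 8 compared clusters it lay between 10.6 and 24.1 CPM in control and between 7.10 and 20.3 CPM in irradiated cells. Xrcc6 held 38.7 and 35.6 CPM in the neutrophil-primed cluster. For each 100 UMIs of Xrcc6 there were 3.61 (1.31 to 8.04) of Xrcc5 in control and 7.01 (5.76 to 8.45) in irradiated neutrophil-primed cells, against 63.4 (56.0 to 71.7) and 52.0 (36.6 to 73.1) in HSC-like and 55.2 and 50 in megakaryocyte-primed cells. These clusters made up 1.47% and 2.34% of control cells and 20.4% and 8.96% of irradiated cells. Without them the log2 ratio of Xrcc5 over the remaining cells was -0.30 (18.7 and 15.2 CPM), short of the call, and that of Xrcc4 was -0.76.

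**Figure D4:**
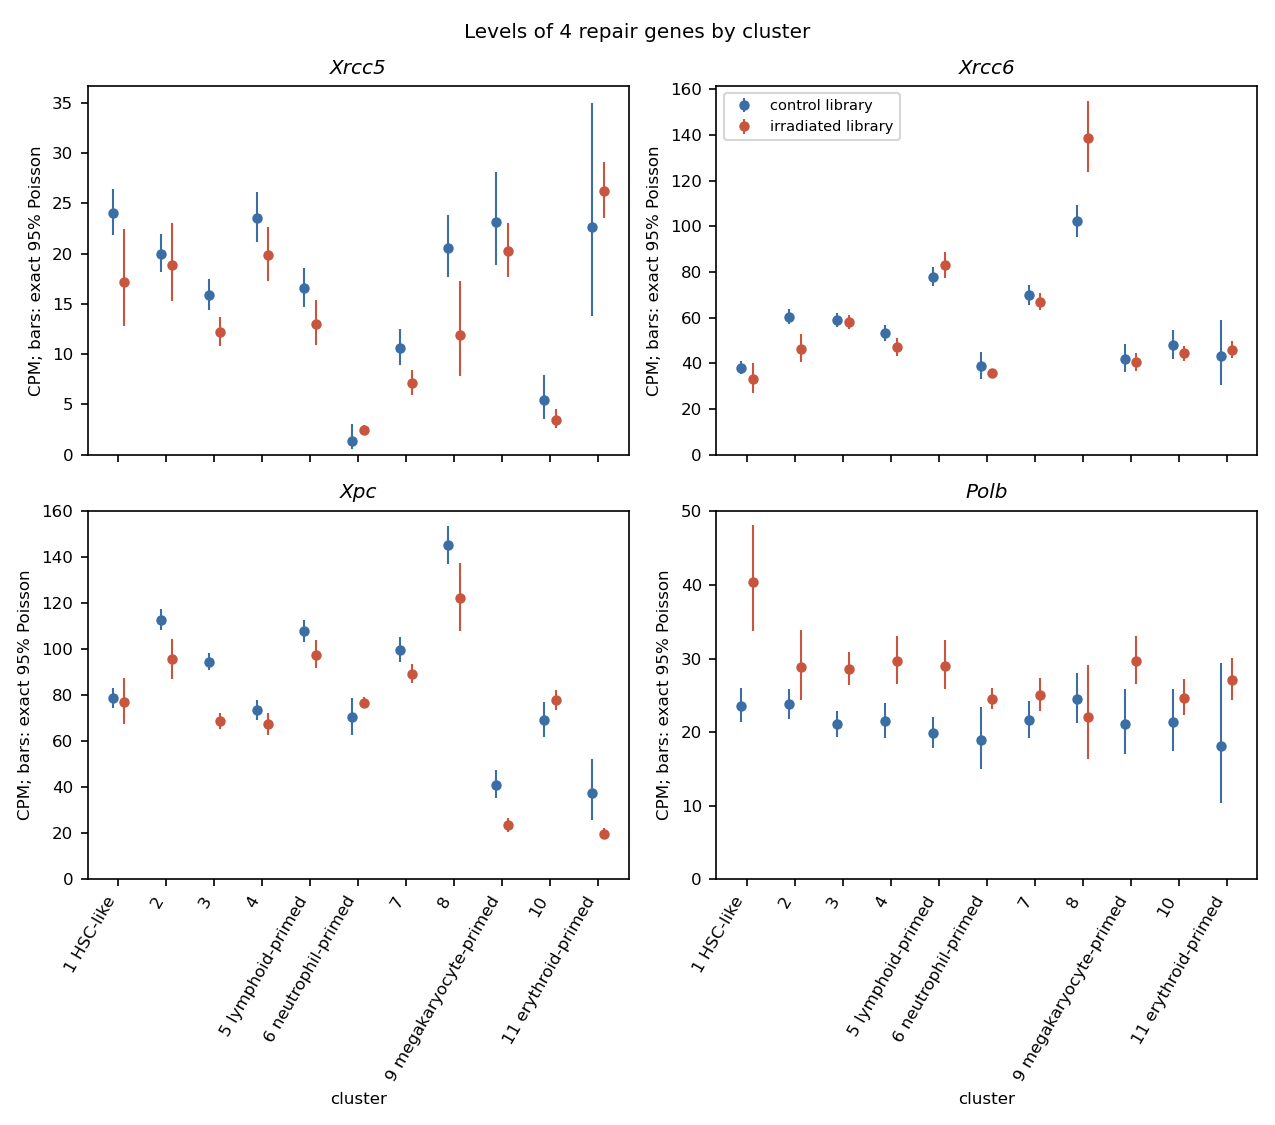
CPM of Xrcc5, Xrcc6, Xpc and Polb in 11 clusters of the control (blue) and irradiated (red) library, with exact 95% Poisson intervals. Xrcc5 is near 0 in cluster 6 and low in cluster 10 of both libraries, Xpc is low in clusters 9 and 11, and Polb is higher in the irradiated library in clusters 1 to 7, 9 and 10 (cluster 11 held only 40 control cells).

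With the mix of clusters and phases held at that of the control library, 2 of 30 measured members were higher and 7 lower, with a median log2 ratio of -0.17. At this setting 6.48% of all genes were higher and 14.3% lower, with a median of -0.03. Nhej1 (0.43) and Polb (0.43) were the higher genes. Mdc1 (-0.55), Brca2 (-0.52), Xrcc4 (-0.50), Palb2 (-0.40), Rad50 (-0.36), Atr (-0.35) and Xrcc5 (-0.34) were the lower ones. Trp53bp1 moved from -0.60 to -0.19, Xpc from -0.41 to -0.17 and Prkdc from -0.35 to -0.17, all short of the call. Atm, called lower over all cells, was short of the call here too. The weights used 21 strata of cluster and phase with at least 20 cells in each library, which held 93.0% of control and 82.4% of irradiated cells.

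**Figure D5:**
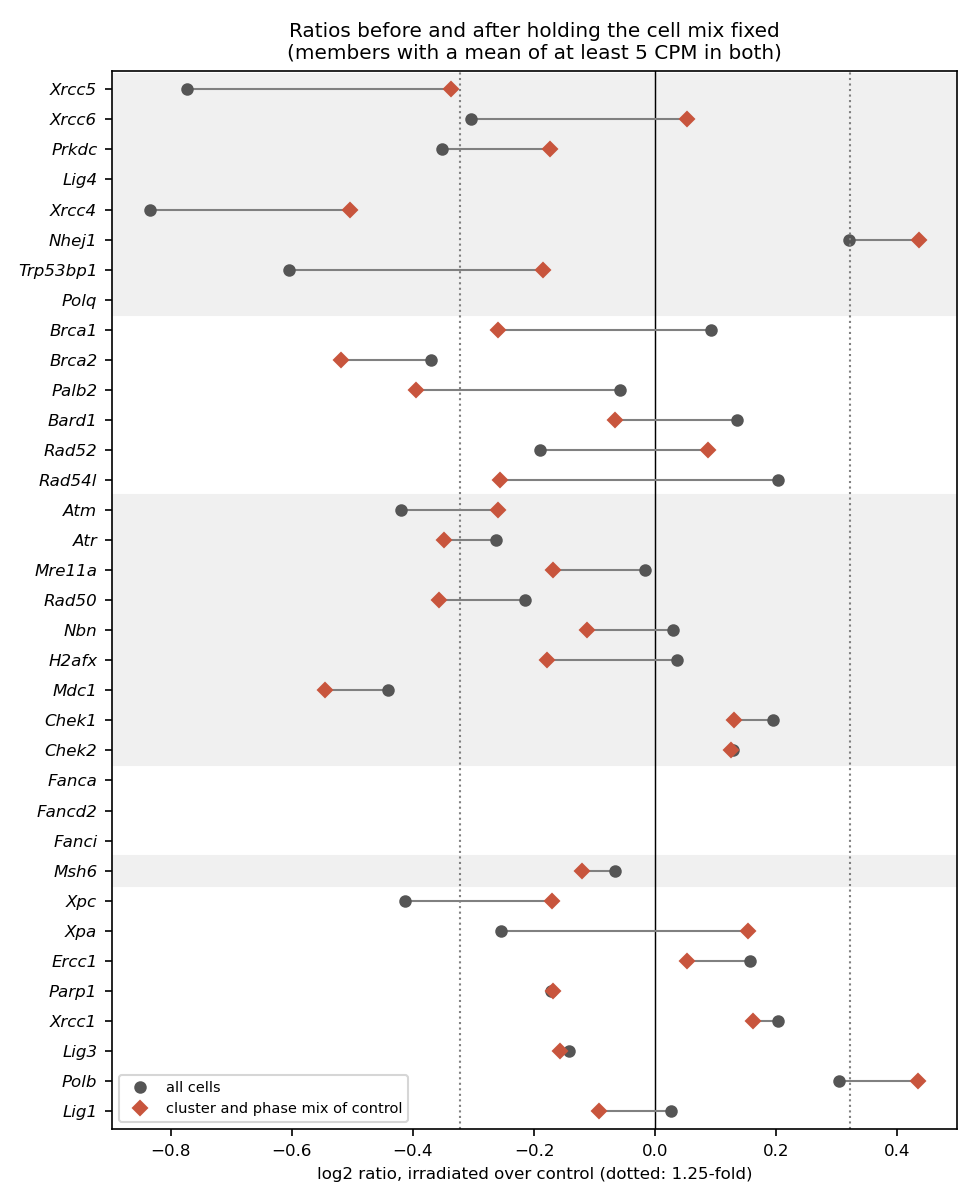
Log2 ratio of irradiated over control CPM for each repair gene at a mean of at least 5 CPM, over all cells (grey circles) and with clusters and phases weighted as in control cells (red diamonds); dotted lines mark the limits of a call. Xrcc5 and Trp53bp1 move towards 0, Brca2, Palb2 and Rad54l move to lower values, and Polb and Nhej1 pass the upper line.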

How the data were processed

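Sorted LSK cells of 1 control and 1 irradiated library were sequenced with 10x Genomics 3′ chemistry. The deposited matrices hold raw UMI counts per gene and barcode, made by the authors with Cell Ranger 2.1.1 on mm10 per the submitters' processing notes, while the file headers name software version 3.1.0. Gene positions came from GENCODE M21 on GRCm38, in which 31011 of 31053 gene IDs were found. Barcodes with under 1000 UMIs, under 500 genes or over 10% mitochondrial counts were removed, 496 in control and 468 in irradiated. Scrublet marked 0.0278% and 0.312% of barcodes, so it had not worked, and removing the highest-scoring 387 and 264 cells was an alternative.

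Cells were clustered in scanpy 1.11.5 (Python 3.11.15, numpy 2.4.6) with leidenalg 0.10.2 at resolution 1, from 2000 variable genes, 30 components and 15 neighbours from each library, leaving out the repair genes, cell cycle genes and sex-linked genes. A cluster was named from at least 3 listed markers among its 25 genes of highest fold. Phases were scored on cells thinned to 5000 UMIs, which left out 66 control and 59 irradiated cells. Counts were summed per library, class or phase and scaled to CPM. Intervals (scipy 1.17.1) are exact Poisson for levels and exact Clopper-Pearson, conditional on the total, for ratios. They cover counting error only. The simulated data they were tested on held counting error alone, so that test cannot show how they fare with spread between cells or animals.

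The members and lists were chosen with earlier results of these data known. All 35 genes were named over all cells. Of the other repair genes, those past 1.5-fold were named. Within classes (at a mean of at least 20 CPM) and phases (at least 5), a rule picked members in each role. It took up to 3 of largest absolute log2 ratio and any past 2-fold. Not all of its picks are given in the text. Members given within classes and phases outside this rule were named after their values were seen. Alternatives changed the scaling, CPM minimum, fold limit, doublet removal, clustering and thinning. Cells are not replicates, so no p-value was computed.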

Additional observations from a re-analysis of the deposited data

Results flagged for a closer look

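H2afx, the histone variant gene, went in opposite directions in 2 phases. Its log2 ratio of irradiated over control CPM was 0.54 (0.45 to 0.64) in cells called G1 and -0.55 (-0.57 to -0.52) in cells called G2/M. With 1 library per group the difference was not tested. In G1 calls the summed S and G2/M lists were also higher in the irradiated library, and in G2/M calls the G2/M list summed to 12306 CPM in the control library and 10226 in the irradiated one. Their part in the H2afx ratios was not tested.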

How the results depend on the processing

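No paired analysis was possible because each group had 1 library and no test was run. Of the values for single genes under the alternatives, 1467 stayed, 200 moved and 1 reversed. To stay meant to lie within the interval of the main value. For 47 of the 1467, with the mix held fixed, no interval existed and closeness to the main value was used. Of the counts and medians, 131 stayed and 40 moved. Over all cells the median log2 ratio of -0.07 became 0.045 with cells thinned and -0.17 at a minimum of 20 CPM. The count of 0 higher genes became 1 without cells of high doublet score, 9 with cells weighted equally, 8 thinned, 3 with median-of-ratios scaling, 1 with no CPM minimum, 1 without the 10 cells of most UMIs and 2 without clusters 6 and 10, the last chosen after seeing the data. The 8 lower genes became 10 at a limit of 5% mitochondrial UMIs, 5 thinned, 4 at 20 CPM, 3 at 1.5-fold and 4 without those clusters. In HSC-like cells 3 higher became 5 with equal weights, and 7 lower became 4 at 20 CPM and 3 at 1.5-fold. In lymphoid-primed cells 2 higher became 8 at resolution 0.5, 4 with 30 neighbours and 1 at 20 CPM or 1.5-fold, and 10 lower became 14 with 30 neighbours, 4 at resolution 0.5, 4 at 20 CPM and 2 at 1.5-fold; the median became 0.04 and Rad54l reversed from -0.63 to 0.14 at resolution 0.5. In neutrophil-primed cells 2 higher became 1 at resolution 0.5 and 0 at 1.5-fold, and 2 lower became 1 at 20 CPM and 0 at 1.5-fold. In megakaryocyte-primed cells 2 higher became 1 with equal weights, at 20 CPM and at 1.5-fold, and 8 lower became 10 at resolution 0.5 and 3 at 1.5-fold. At 20 CPM the phase counts became 12 higher for control S over G1, 7 higher and 2 lower for control G2/M, 8 higher and 2 lower (median 0.52) for irradiated S, and 7 higher and 2 lower for irradiated G2/M. With the mix of phases alone held fixed 1 gene was higher and 10 lower. The cause of these moves was not tested. Settings that left under 100 cells in a library were not run: 30 neighbours for HSC-like and megakaryocyte-primed cells, resolution 2 for neutrophil-primed cells and markers left out for megakaryocyte-primed cells.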
